A study of Mus musculus with 4 samples.

Results

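The epidermal growth factor (EGF) family was followed here through 9 of the 32285 genes counted in single cells of mouse spermatogonial cultures. The 6 ligand genes were Hbegf, Areg, Ereg, Btc, Tgfa and Nrg1, and the 3 receptor genes were Egfr, Erbb2 and Erbb3. They were taken by gene symbol, after Hbegf had stood out among the transcripts of fibroblasts in the vesicle-treated library of these same data. The comparison of treated with vehicle fibroblasts is for that reason a description of how the members behaved.

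Ligands of this family are made as membrane-anchored precursors, and metalloproteases such as ADAM17 cut them to release the active growth factor. The released ligand binds a receptor tyrosine kinase on the same or a neighbouring cell. HB-EGF, amphiregulin, epiregulin, betacellulin and TGF-alpha bind EGFR, and neuregulin 1 binds ERBB3 and ERBB4. These pairings are not exclusive. ERBB2 has no known ligand of its own and pairs with the other receptors, and ERBB3, whose kinase is weak, depends on such pairing. Paired receptors feed the ERK and PI3K pathways, and fibroblasts and epithelia use the family in growth and wound repair.

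The cultures came from testes of 3 male pups at postnatal day (PND) 6. Their Thy1+ cells, among which undifferentiated spermatogonia are enriched, were kept on STO cells, a mouse embryonic fibroblast line that serves as a feeder layer, in medium with GDNF and FGF. In the EV arm 1 μg/mL of extracellular vesicles (EVs) from testes of PND 7 mice was added for 3 days, and in the vehicle arm PBS was added for the same 3 days. The mice of the study were C57BL/6, no transgene or deletion was named, and the sampled cells were clumps digested to single cells, so that feeder cells entered only as far as they came along with the clumps. Both arms therefore shared the pups' strain, the feeder line and the growth factors.

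Transcripts were counted by unique molecular identifiers (UMIs), which tell captured RNA molecules apart. Counts of vehicle 1, vehicle 2 and EV 1 were used, with 23686047, 27444797 and 10793232 UMIs. The expression of EV 2 was not analysed here. The EV arm thus rested on 1 library, and no test across samples was made. The titles call the libraries of an arm biological replicates. After filtering, 8263, 8637 and 4779 cells remained, and any pair of libraries shared at most 22 barcodes. Each cell was classed by its own marker UMIs. The feeder class had at least 2 UMIs of Col1a1, Col1a2, Sparc and Dcn, and more of them than of Dazl, Tex15, Stk31 and Epcam. The germ class was the reverse. The feeder class held 2346, 2477 and 2510 cells with medians of 3620.5, 3899 and 2447.5 UMIs, and the germ class 4421, 4780 and 226 cells with medians of 1936, 2098.5 and 1325. Cells of neither class made up 18.1%, 16.0% and 42.7%. EV 1 stood apart in depth, in class shares and in its 226 germ cells, so germ values of that library rest on few UMIs. Levels are given as CPM, the UMIs of a gene scaled to a total of 1000000 UMIs in the class.

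The class labels were checked with markers that the rule had not used. Summed over 10 other fibroblast genes, the feeder class held 1896, 1980 and 1857 CPM in vehicle 1, vehicle 2 and EV 1, against 229, 210 and 342 in the germ class. Most of the feeder sum was Fn1, at 1171, 1228 and 1200 CPM. Fbn1 went the other way and was higher in germ cells of each library, in EV 1 on 3 germ UMIs. Summed over 8 other germ cell genes, the germ class held 897, 918 and 657 CPM and the feeder class 28.7, 24.1 and 10.3. A list of 6 Sertoli genes reached 405, 418 and 398 CPM in the feeder class, nearly all of it from Sox9 and Rhox5, while the Sertoli hormone gene Amh had 0, 2 and 0 UMIs there. Macrophage genes summed to 14.9, 10.9 and 22.8 CPM of the feeder class, with all 5 list members detected in each library. Of these sums Cd68 gave 6.74, 6.12 and 17.8 CPM, whereas Lyz2 gave 6.42, 2.60 and 2.21. Ptprc had 9, 6 and 6 UMIs, Adgre1 3, 5 and 3, and Csf1r 5, 12 and 10. Whether macrophages were present, and what part they had in the member values, was not tested. Leydig, myoid, endothelial and epithelial lists summed to 27.4 CPM or less in the feeder class of every library.

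The members lie on 6 chromosomes of the mm10 (GRCm38) build that the authors aligned to. Areg (chr5:91139599-91148432, plus strand), Ereg (chr5:91074622-91093646, plus) and Btc (chr5:91357261-91402994, minus) sit with Epgn, a further ligand gene, within 375.5 kb of chromosome 5. Hbegf, Tgfa (chr6:86195223-86275719, plus) and Nrg1 (chr8:31814551-32884029, minus) lie apart from that cluster. Egfr (chr11:16752203-16918158, plus), Erbb2 (chr11:98412470-98437716, plus) and Erbb3 (chr10:128567523-128589652, minus) complete the set. On the opposite strand Ereg overlaps Gm19610, Egfr overlaps Egfros and Erbb2 overlaps Mien1.

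Promoter sequence, 250 bases before to 50 bases after the start in RefSeq (GRCm38.p6), was matched for 5 members, namely Areg, Btc, Egfr, Erbb2 and Tgfa. Both strands were searched for the palindromic cAMP response element TGACGTCA, the core that CREB proteins bind, and for the AP-1 element TGANTCA, which FOS and JUN proteins bind. The first pattern does not contain the second. The first was present in Areg alone of the 5, 61 bases before the start, and in 588 of 32851 promoters of the same length (1.79%). The second was in none of the 5 and in 7.81% of all promoters. The Areg promoter is shown because Areg is the second member past the 2-fold rule in feeder cells (chr5:91139349-91139648, plus strand, with the element in capitals).
Areg: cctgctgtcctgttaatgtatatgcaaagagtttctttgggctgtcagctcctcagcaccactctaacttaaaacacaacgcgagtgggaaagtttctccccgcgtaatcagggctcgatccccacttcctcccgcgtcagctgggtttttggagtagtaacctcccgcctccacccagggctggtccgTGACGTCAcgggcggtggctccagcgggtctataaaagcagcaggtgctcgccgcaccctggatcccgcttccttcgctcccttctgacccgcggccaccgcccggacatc
A match gives the letters in this window and no binding or regulation.

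The leading value of the family was Hbegf (chr18:36504927-36515805, minus strand), which encodes HB-EGF, the heparin-binding ligand that also serves as a membrane-bound growth factor. In feeder cells it had 620 UMIs in vehicle 1, 689 in vehicle 2 and 2061 in EV 1, or 65.2 (95% Poisson interval 60.2 to 70.6), 63.9 (59.2 to 68.9) and 303.2 CPM (290.3 to 316.6). The vehicle libraries overlapped each other and EV 1 lay far above both. Relative to the pooled vehicle libraries EV 1 was 4.70-fold higher (exact conditional interval 4.38 to 5.04), a log2 difference of 2.23 from the vehicle mean with 0.5 UMI added. Of 12875 genes with at least 50 UMIs in feeder cells, 24 had a larger log2 ratio. All intervals cover counting error only, and UMIs are not compared between genes, whose capture may differ.

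Areg encodes amphiregulin, an EGFR ligand of lower affinity. It had 511, 609 and 753 UMIs in feeder cells, or 53.8, 56.5 and 110.8 CPM in vehicle 1, vehicle 2 and EV 1. EV 1 stood 2.01-fold above the pooled vehicle libraries (1.83 to 2.20). Its log2 ratio of 1.01 lay only just past the 2-fold rule, and it was 0.979 without the removal of doublets, 0.954 with all deposited barcodes and 0.971 without vehicle 1. The neighbouring ligands of the chromosome 5 cluster stood above both vehicle libraries by less. Ereg, encoding epiregulin, had 96.5, 93.7 and 125.7 CPM (ratio 1.32, 1.22 to 1.43). Btc, encoding betacellulin, had 31.7, 31.2 and 45.3 (ratio 1.44, 1.26 to 1.66). Epgn, the fourth gene of that cluster, had 2, 5 and 11 UMIs, too few for a level. Hbegf and the 3 members of the chromosome 5 cluster thus had intervals above 1.

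Of the remaining ligands, Nrg1 lay on the other side and Tgfa had too few UMIs to place. Nrg1, encoding neuregulin 1, had 796, 921 and 468 UMIs in feeder cells, or 83.8, 85.5 and 68.9 CPM, so that EV 1 lay below both vehicle libraries (ratio 0.813, 0.733 to 0.901). Tgfa, encoding TGF-alpha, had 12, 16 and 12 UMIs, and its ratio of 1.28 was above 1 with an interval from 0.592 to 2.60. Within parts of the feeder cells cut by metallothionein share Nrg1 of EV 1 was 1.25-fold, 1.19-fold and 0.998-fold the vehicle mean, and it was below that mean in most parts cut by other measures, as given below.

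Among the receptors, Egfr had 192, 241 and 117 UMIs in feeder cells, or 20.2, 22.4 and 17.2 CPM. EV 1 was the lowest of the 3, with a ratio of 0.806 whose interval (0.652 to 0.991) came close to 1. Erbb2, the pairing receptor, had 10.6, 9.0 and 9.42 CPM, with EV 1 between the vehicle libraries (ratio 0.964, 0.716 to 1.28). Its log2 ratio of -0.06 was 0.07 with DESeq2 size factors. Erbb3 had 7, 13 and 5 UMIs, which allow no statement on a difference (ratio 0.746, 0.219 to 2.05).

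**Figure D1:**
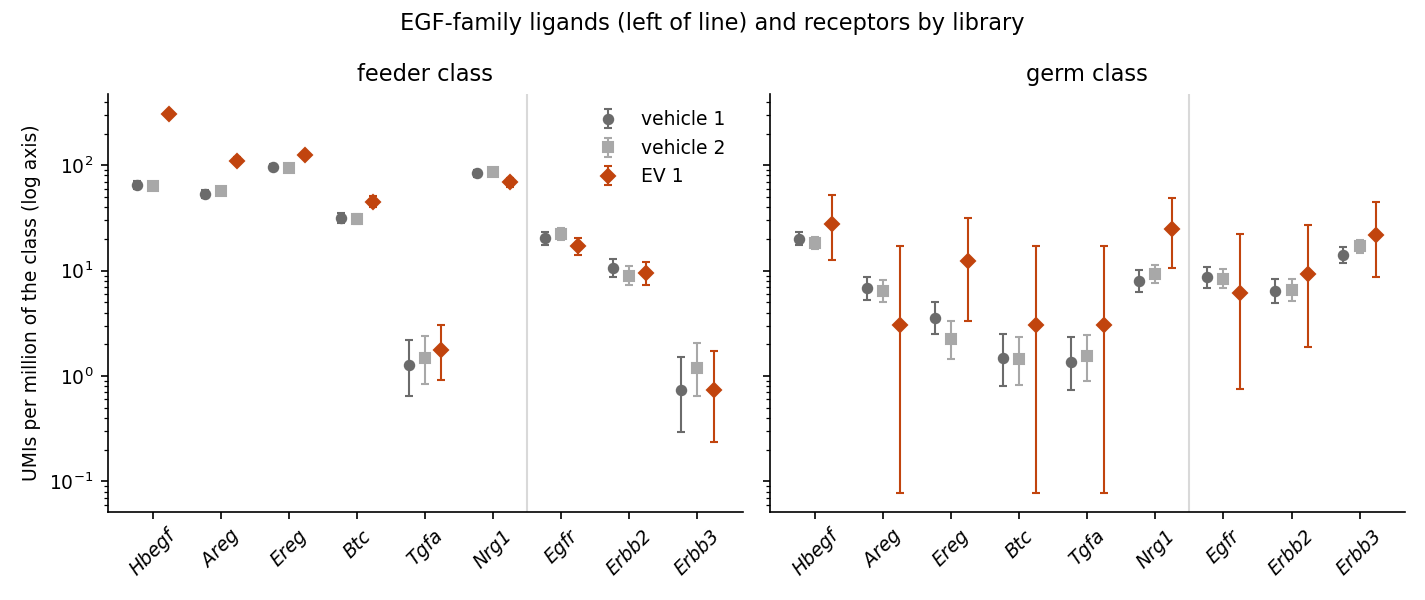
CPM of the class (log axis) for each member in feeder-class (left) and germ-class cells (right) of vehicle 1, vehicle 2 and EV 1, with ligands left of the grey line and 95% Poisson intervals as bars. Hbegf at 303.2 and Areg at 110.8 in EV 1 feeder cells stand clear of the vehicle libraries, while germ values of EV 1 carry wide bars.

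By the rule of at least 2-fold from the vehicle mean with EV 1 outside the vehicle range, 7 of the 9 members had the 50 UMIs needed in feeder cells. Of these, 2 were higher in EV 1 (Hbegf and Areg) where 2.41% of all genes passing the minimum were, and 0 were lower where 4.94% were. The median log2 ratio of the 7 was 0.40, against -0.13 over all genes. Since Hbegf was chosen on this contrast, nothing is read from the share. Scaling by TMM factors and by DESeq2 size factors moved the median of all genes from -0.13 to -0.0043 and 0.0006, and left the same 2 members past the rule. Over all genes 310 were higher and 636 lower as given, 431 and 489 with TMM factors, and 439 and 486 with DESeq2 size factors.

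**Figure D2:**
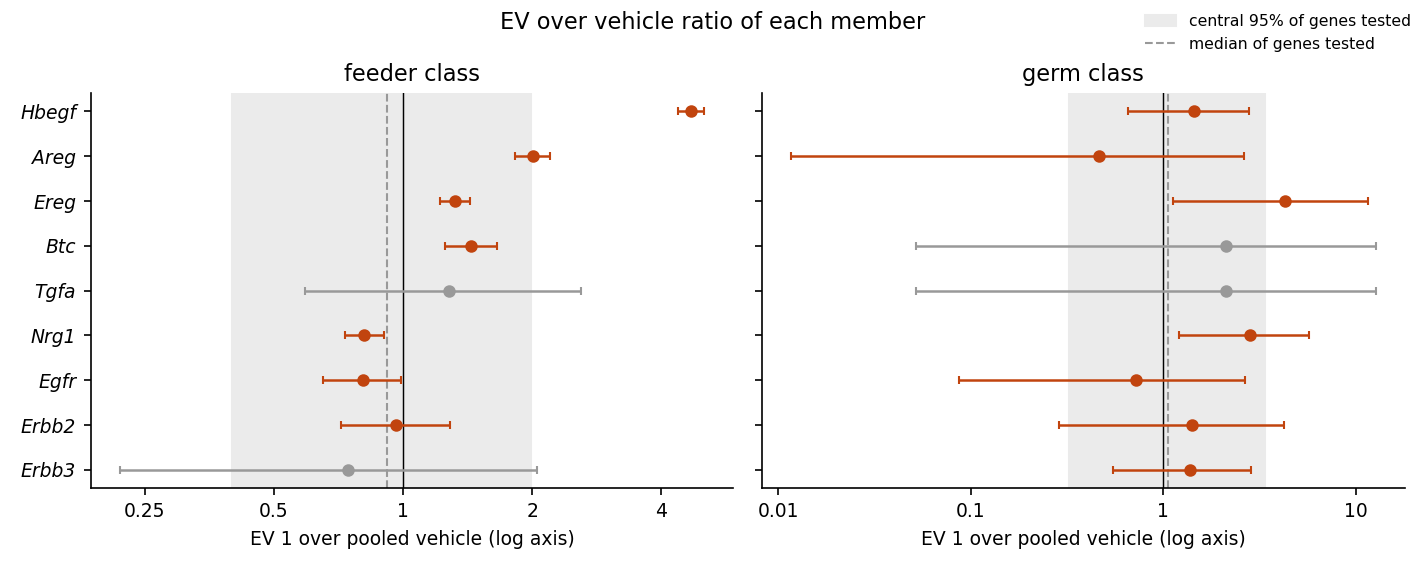
Ratio of EV 1 to the pooled vehicle libraries (log axis) for each member in feeder-class (left) and germ-class cells (right), with exact conditional 95% intervals as bars and grey points for members under 50 UMIs. The grey band is the central 95% of all genes tested and the dashed line their median, and Hbegf at 4.70 lies outside the band in feeder cells, with Areg at 2.01 at its edge of 1.99.

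To compare the share of cells with an Hbegf UMI across depths, feeder cells were thinned to 1000 UMIs each, which left out 86, 55 and 186 shallower cells. The share of feeder cells with an Hbegf UMI was then 5.62% in vehicle 1, with a Wilson interval from 4.74 to 6.65. In vehicle 2 it was 4.62% (3.86 to 5.53), and in EV 1 it was 23.1% (21.5 to 24.9). Without thinning the shares were 17.6%, 18.2% and 42.5%, and at 2000 UMIs they were 11.0%, 10.5% and 40.1%. In germ cells at 1000 UMIs the shares were 2.01%, 1.56% and 2.25%. Among feeder cells with the transcript at 1000 UMIs, the mean was 1.08, 1.08 and 1.26 Hbegf UMIs. Cells with 2 UMIs numbered 6, 7 and 87, and a cell of EV 1 held 7 while no vehicle cell held more than 3.

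**Figure D3:**
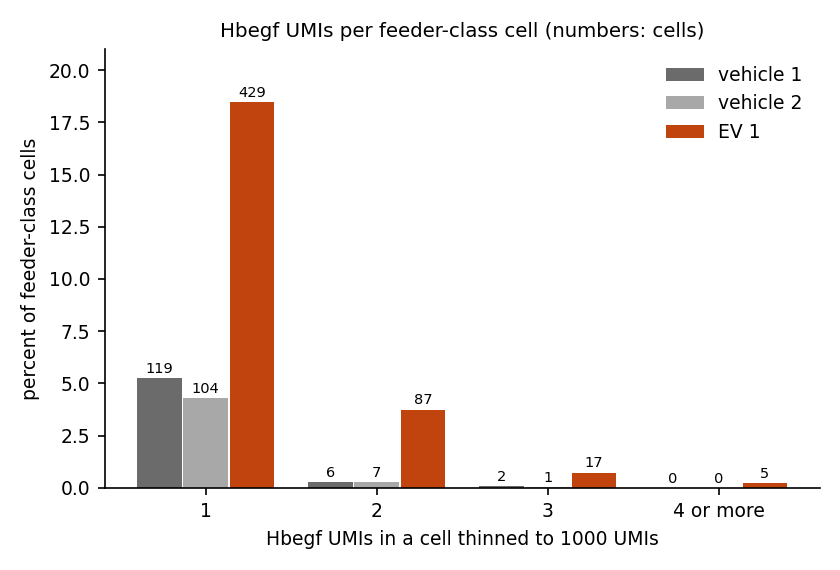
Percent of feeder-class cells with 1, 2, 3 or 4 and more Hbegf UMIs after each cell was thinned to 1000 UMIs, for vehicle 1, vehicle 2 and EV 1, with the number of cells above each bar. EV 1 has 429 cells with 1 UMI and 87 with 2, against 119 and 6 in vehicle 1 and 104 and 7 in vehicle 2.

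Ligand transcripts were also counted together in the same thinned feeder cells. None of the 6 ligands was detected in 75.4%, 75.1% and 55.9% of feeder cells of vehicle 1, vehicle 2 and EV 1, exactly 1 in 21.8%, 21.7% and 34.1%, and exactly 2 in 2.70%, 2.89% and 8.56%. Areg was found in 8.66%, 5.36% and 12.8% of the cells with an Hbegf UMI and in 3.98%, 4.72% and 9.01% of those without one. Ereg was found in 11.5%, 13.0% and 14.8% of the cells with an Areg UMI and in 7.26%, 7.02% and 10.1% of those without. The higher value fell on the same side in all 3 libraries for both pairs, but the Wilson intervals overlapped except for the first pair in vehicle 1, where they met (4.91 to 14.8 against 3.23 to 4.90). For Ereg with Hbegf the sides differed, at 4.72%, 11.6% and 11.3% of the Hbegf-positive cells against 7.59%, 7.10% and 10.4% of the others. Nrg1 was found in 7.09%, 7.14% and 5.58% of the Hbegf-positive cells and in 7.69%, 8.57% and 7.17% of the others. A receptor transcript was detected in 3.72%, 3.34% and 2.71% of feeder cells, and a ligand and a receptor in the same cell in 1.11%, 1.07% and 1.08%.

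Feeder cells of EV 1 differed from those of the vehicle libraries in several measures, among them depth and metallothionein share. The members were therefore also read within strata. In this design such differences cannot be told apart from treatment, so the strata are a description and no adjustment for it. Mt1 and Mt2 encode metallothioneins, small metal-binding proteins. Cut into 3 equal parts by the Mt1 plus Mt2 share of UMIs over all 7333 feeder cells, 19.4%, 19.1% and 60.4% of the feeder cells of vehicle 1, vehicle 2 and EV 1 fell into the high part. Hbegf was higher in EV 1 in each part, with 184 against 53.9 and 53.9 CPM in the low part (3.42-fold over the vehicle mean), 279 against 67.4 and 68.1 in the middle (4.11-fold) and 335 against 85.4 and 78.3 in the high part (4.09-fold). It was also higher from low to high within every library.

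Areg differed from Hbegf in this respect. In the low part EV 1 had 49.7 CPM (35.7 to 67.5), on the low side of 61.3 and 58.5 in the vehicle libraries. In the middle part it had 113.8 against 48.5 and 58.6, and in the high part 121.2 against 48.5 and 47.5 (2.52-fold). The higher Areg level was thus seen in the middle and high parts, with intervals that did not overlap those of the vehicle libraries, and not in the low part, where 41 UMIs were counted in EV 1. Ereg was 1.15-fold, 1.21-fold and 1.72-fold the vehicle mean from low to high, and Btc 1.15-fold, 1.82-fold and 1.58-fold.

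Nrg1 and Egfr did not keep their direction in all of these parts. Nrg1 was lower at a higher metallothionein share in every library, at 110.1, 75.6 and 43.5 CPM in vehicle 1, 111.4, 71.7 and 54.1 in vehicle 2 and 138.3, 87.8 and 48.7 in EV 1. Egfr in EV 1 was 52.2 CPM in the low part (37.7 to 70.3) against 24.8 and 27.7, and 9.64 in the high part (6.95 to 13.0) against 15.6 and 18.7. The high part, which held most EV 1 feeder cells, had the lowest Nrg1 level in every library and the lowest Egfr level in vehicle 1 and EV 1, while Egfr of vehicle 2 was 18.2 in the middle and 18.7 in the high part. What sets the metallothionein share was not tested, and the equal cuts leave room for further differences within a part.

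**Figure D4:**
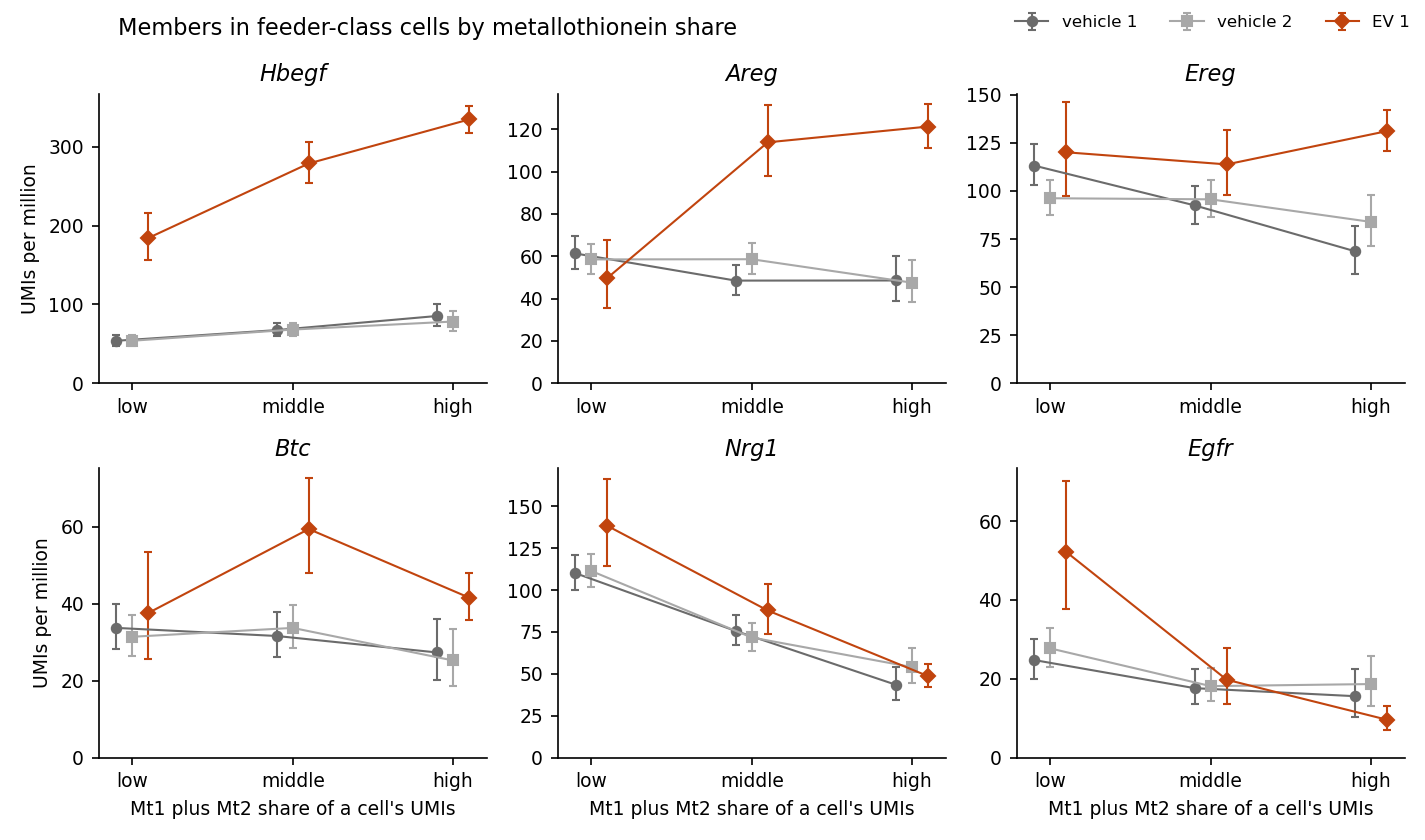
CPM in feeder-class cells with a low, middle or high share of Mt1 plus Mt2 UMIs, for 6 members in vehicle 1, vehicle 2 and EV 1, with 95% Poisson intervals as bars. Hbegf of EV 1 is above the vehicle libraries in each part, Areg in the middle and high parts, and Nrg1 declines from low to high in every library.

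Other strata left Hbegf higher in EV 1 throughout. By UMIs per cell the difference was 6.32-fold in the shallowest part, 5.62-fold in the middle and 4.86-fold in the deepest. By mitochondrial share it was 4.47-fold, 4.71-fold and 5.24-fold from low to high. By the share of the immediate early genes Fos, Egr1 and Jun it was 4.21-fold in the low and 5.496-fold in the high part. Cells with at least 2 UMIs of cell cycle genes made up 6.73%, 6.46% and 0.956% of feeder cells, and the cells under 2 gave 4.84-fold. Cells with fewer than 2 interferon-response UMIs gave 4.66-fold. Nrg1 in EV 1 was 0.634-fold to 0.891-fold the vehicle mean over the parts by UMIs per cell, 0.706-fold to 0.975-fold by the immediate early share and 0.671-fold to 1.001-fold by mitochondrial share. It was 0.823-fold in the cells under 2 cell cycle UMIs and 0.792-fold in those under 2 interferon-response UMIs. Ereg went with the immediate early share, at 67.1 and 68.9 CPM in the low and 122.4 and 118.4 in the high part of vehicle 1 and vehicle 2, whereas EV 1 had 119.9 and 135.7.

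The genes most like Hbegf over single feeder cells were sought among 4937 genes with at least 200 UMIs in each library, by the lowest of the 3 within-library Pearson correlations over 2260, 2422 and 2324 cells at 1000 UMIs. They were Tmsb4x (0.07), Actb (0.06), Ier3 (0.05), Ccl2 (0.05) and Tomm7 (0.05). Values this weak in sparse counts are no finding, and the cells of a library share its depth and free RNA.

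Which cells carried each member was compared within the libraries, so that treatment was shared, although feeder cells were deeper than germ cells in each. At least 2-fold in every library, 6 members were higher in feeder than in germ cells (Hbegf, Areg, Ereg, Btc, Nrg1 and Egfr) where 12.7% of all genes were, and 1 was higher in germ cells (Erbb3) where 29.1% were. Over all genes 1986 were higher in feeder and 4564 in germ cells, against 3216 and 3277 with TMM factors. Tgfa and Erbb2 passed the minimum and met neither rule. The call of Egfr rests in EV 1 on 2 germ UMIs (4.29% to 132% of the feeder level) and was lost with 1 UMI added, without doublet removal, with all deposited barcodes, with at least 3 marker UMIs, without UMIs of the other class and with cells thinned to 1000 UMIs. Erbb3 had 134, 188 and 7 UMIs in germ cells of vehicle 1, vehicle 2 and EV 1 against 7, 13 and 5 in feeder cells, so that the germ level was 14.2, 17.0 and 21.6 CPM where the feeder level was 0.737, 1.21 and 0.736. Germ cells thus had the higher level of this neuregulin receptor gene, and feeder cells that of Nrg1. Over all kept cells Erbb3 had 7.58, 9.14 and 1.80 CPM, alongside germ shares of 53.5%, 55.3% and 4.73%.

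Fibroblast markers in germ cells give the level against which these germ values are set. Summed over the 10 fibroblast markers outside the rule, the germ level was 12.1%, 10.6% and 18.4% of the feeder level, with a median over markers of 9.26%, 9.13% and 15.7% and a range that reached above 100% for Fbn1 in each library. Ereg at 3.73%, 2.41% and 9.81% and Btc at 4.67%, 4.64% and 6.80% were below the marker median in each library, but in EV 1, on 4 and 1 germ UMIs, their intervals (2.67 to 25.2 and 0.172 to 38.2) include it. Areg at 12.8% (9.72 to 16.6), 11.4% (8.75 to 14.5) and 2.78% (0.0703 to 15.5, on 1 germ UMI) was above it in the vehicle libraries and below it in EV 1. Whether free RNA gives these values was not tested. Nrg1 was also near the median in the vehicle libraries, at 9.60% (7.48 to 12.2) and 10.9% (8.80 to 13.4), with 35.8% in EV 1 on 8 UMIs.

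Hbegf and Egfr stood above the marker median in vehicle germ cells. Hbegf in germ cells had 190, 203 and 9 UMIs, or 20.1, 18.3 and 27.7 CPM, which was 30.8% (26.04 to 36.3), 28.7% (24.4 to 33.6) and 9.15% (4.18 to 17.4) of the feeder level. With both classes restricted to cells without a UMI of the other class's rule genes (3343, 3798 and 176 germ cells, 2087, 2228 and 2487 feeder cells) the share was 29.9%, 29.98% and 7.97%. Of the markers in these restricted cells, Fbn1 (182% and 162%) and Col5a1 (57.4% and 59.9%) lay above Hbegf in the vehicle libraries. The other markers lay below it there, with Thy1 nearest (23.5% and 22.1%). In EV 1 the Hbegf share of 9.15% lay below the marker median of 15.7%, which its interval includes. Egfr had 82, 93 and 2 germ UMIs, at 42.9%, 37.6% and 35.8% of the feeder level, and Erbb2 61, 73 and 3, at 60.7%, 73.3% and 98.2%. The part of free RNA in these values was not tested.

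**Figure D5:**
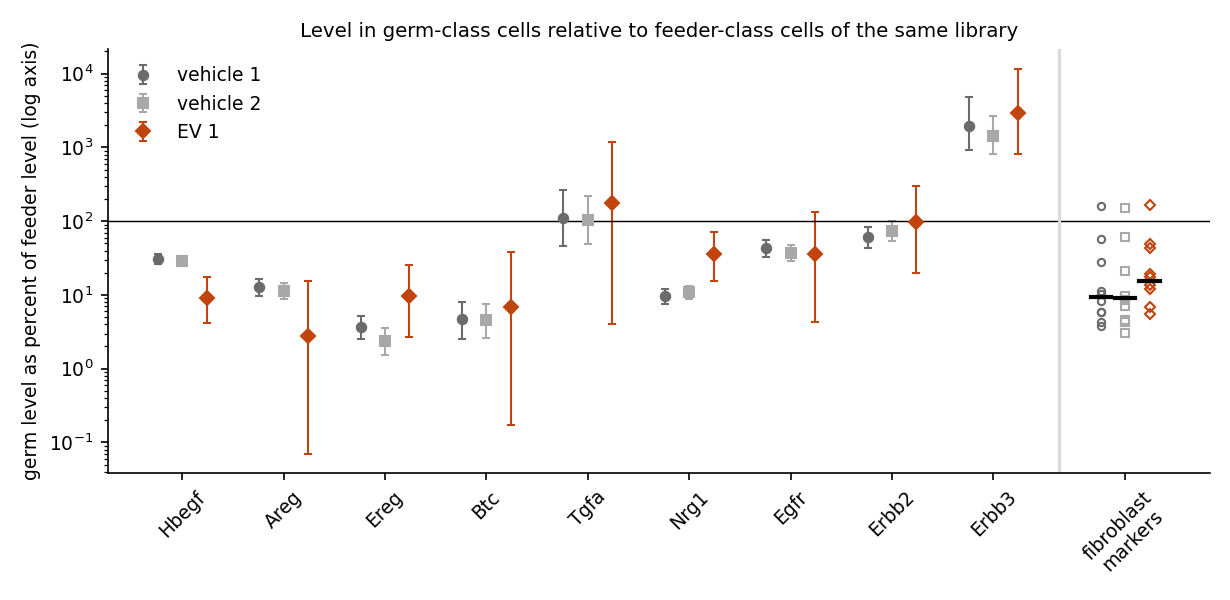
Germ-class level as a percent of the feeder-class level of the same library (log axis) for each member, with exact conditional 95% intervals as bars, and for fibroblast markers outside the class rule (open symbols, black lines for the medians of 9.26%, 9.13% and 15.7%, a marker at 0 left out). Ereg and Btc lie under the medians, Hbegf of the vehicle libraries at 30.8% and 28.7% above them, and Erbb3 above 100%.

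Between the arms, germ values of EV 1 rest on 324434 UMIs. Of the 9 members 7 had 50 UMIs, 2 were higher in EV 1 (Ereg and Nrg1) where 11.5% of all genes were, and 0 were lower where 6.87% were. Ereg had 34, 25 and 4 UMIs (ratio 4.29, 1.13 to 11.6) and Nrg1 76, 103 and 8 (ratio 2.83, 1.202 to 5.69). In EV 1 the germ level was 9.81% of the feeder level for Ereg and 35.8% for Nrg1, beside a marker median of 15.7%. The fibroblast markers in germ cells summed to 229, 210 and 342 CPM, and their part in the result was not tested. Ereg met the minimum in neither pairing with a single vehicle library, and neither gene met the rule with cells thinned to 1000 UMIs. Erbb3 gave 1.37 (0.548 to 2.87), Hbegf 1.45 (0.657 to 2.78), Erbb2 1.42 (0.288 to 4.23) and Egfr 0.723 (0.0869 to 2.65). Areg, Btc and Tgfa each had 1 UMI in EV 1 germ cells, with intervals that include 1.

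The other genes of the family divided between the classes as well. Of 6 such genes, Egf, Nrg2 and Nrg4 met the 2-fold rule for germ cells in every library, where 29.1% of all genes did, and 2 met it for feeder cells, where 12.7% did. Nrg4 had 194, 300 and 17 germ UMIs against 31, 20 and 25 in feeder cells, whereas the call of Egf rests in EV 1 on 2 germ UMIs, with an interval of 33.0% to 1303% of the feeder level. Those higher in feeder cells were Nrg3 and Erbb4, a receptor for neuregulins among other ligands. In EV 1 both had 0 germ UMIs against 23 and 24 feeder UMIs, with intervals up to 364% and 348% of the feeder level. Their call there thus rests on the 0.5 UMI added. Of the 6 genes, 3 passed the minimum in feeder cells and none met the rule between arms, while in germ cells 3 passed and 2 met the rule for higher in EV 1 where 11.5% of all genes did, Nrg2 on 7 UMIs and Nrg4 on 17, at ratios of 2.27 (0.901 to 4.77) and 2.18 (1.26 to 3.52).

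Genes that release, relay or restrain these signals were counted by the same rule in feeder cells, where 2.41% of all genes were higher and 4.94% lower. Of 9 shedding and binding partners 8 passed the minimum and 1 was higher in EV 1, namely Adam12, a metalloprotease of the ADAM family, with 94, 111 and 144 UMIs (ratio 2.10, 1.68 to 2.61). Adam17, the main sheddase of several EGFR ligands, had a ratio of 0.752 (0.680 to 0.829). Of 13 inhibitors 1 was higher, Dusp5, a nuclear phosphatase of ERK, with 134, 145 and 233 UMIs (ratio 2.49, 2.09 to 2.98). None of 5 adaptor genes met the rule. The median log2 ratios of these lists were 0.10, 0.29 and 0.02, beside -0.13 over all genes.

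Transcripts known to respond to ERK lay on both sides in feeder cells. Of 10, 1 was higher where 2.41% of all genes were, and 2 were lower where 4.94% were. The higher one was Ier3, an immediate early gene of stress and growth factor responses, at 639, 647 and 1836 CPM (ratio 2.85, 2.78 to 2.93). The lower ones were the immediate early factors Fos (1508, 1597 and 111 UMIs, ratio 0.107, 0.0875 to 0.129) and Egr1 (869, 1047 and 289 UMIs, ratio 0.450, 0.396 to 0.510). The list had a median log2 ratio of -0.0014. In germ cells, where 11.5% of all genes were higher and 6.87% lower, Adam19 (1 of 8 shedding genes) and Fosl1 (1 of 8 ERK-responsive genes) met the rule for higher in EV 1 on 3 and 10 UMIs, with intervals that include 1. Of 13 inhibitors, 3 met the rule for lower with 1 UMI each in EV 1. These were Lrig3 (ratio 0.318, 0.00801 to 1.79), whose interval includes 1, Spry4 (0.176, 0.00445 to 0.988), whose interval nearly reaches 1, and Dusp6 (0.117, 0.00296 to 0.655), with 245 and 295 UMIs in the vehicle libraries. Egr1 was lower on 18 UMIs (ratio 0.479, 0.283 to 0.759), and no adaptor met the rule.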

How the data were processed

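The authors had counted 4 droplet libraries with Cell Ranger 7.0.1 against mm10 (GENCODE vM23). What they deposited are raw UMI counts of each gene in each barcode called as a cell. Groups and numbers came from the sample titles. For EV 2 only the barcode list (6794) was used. Following the study, a kept cell had more than 400 and fewer than 4000 genes, and a mitochondrial share below 10%. The highest Scrublet scores (scanpy 1.11.5) were removed at 0.8% per 1000 cells. The study used another doublet caller, which can move class sums slightly.

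UMIs were summed per library and class and scaled to CPM. Log2 ratios and the calls by the 2-fold rule used 0.5 UMI added, and calls needed a minimum of 50 UMIs over the 3 libraries. The printed ratios of single genes to the pooled vehicle libraries had no UMI added. The same holds for germ levels as a percent of feeder levels and for folds within strata. Intervals are exact Poisson, exact conditional and Wilson intervals at 95%. No p-value is given. TMM factors (edgeR 4.0.16) and size factors (DESeq2 1.42.0) were alternatives. The ratio step was tested on simulated data.

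The 9 members and all gene lists were chosen with earlier results of these data known. Named genes are the members, the rest of the family, listed pathway genes past the 2-fold rule, the 5 genes most like Hbegf, marker genes and genes used for strata. Adam17 was named after its value was seen. Nrdc was matched under its older symbol. Gene positions came from GENCODE vM21 (GRCm38) by gene ID. Python 3.11.15, numpy 2.4.6 and scipy 1.17.1 were used.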

Additional observations from a re-analysis of the deposited data

Results flagged for a closer look

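Cells of neither class entered the report only through sums over all kept cells. They were 1496, 1380 and 2043 cells of vehicle 1, vehicle 2 and EV 1, with fibroblast markers outside the rule at 983, 1024 and 1683 CPM and germ cell markers at 394, 381 and 42.7. In these cells 5 ligands stood in EV 1 above both vehicle libraries with Poisson intervals that did not overlap. Hbegf was at 167.7 CPM in EV 1 on 487 UMIs, against 67 and 70 UMIs in the vehicle libraries (ratio 5.54, 4.57 to 6.74). Areg was at 83.7 (ratio 4.11), Ereg at 89.9 (ratio 2.21), Btc at 24.8 (ratio 2.74) and Nrg1 at 109.2 (ratio 1.67). The higher fibroblast marker level of EV 1 moved with all 5, and its part in them was not tested. Egfr was at 26.5 CPM, with a ratio of 1.19 (0.871 to 1.61).

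Nrg1 was singled out because its direction between arms differed by class, with a ratio of 0.813 in feeder cells and 2.83 in germ cells and intervals that exclude 1 in both. That difference was not tested. The germ value rests on 8 UMIs of EV 1. The feeder value was 1.25-fold, 1.19-fold and 0.998-fold the vehicle mean within metallothionein parts. It stayed below 1 in the parts by UMIs per cell, immediate early share, cell cycle UMIs and interferon-response UMIs (0.326-fold to 0.975-fold). The lowest of these, in cells with at least 2 cell cycle UMIs, rests on 3 Nrg1 UMIs of EV 1. The next, 0.633-fold in cells with at least 2 interferon-response UMIs, rests on 8. By mitochondrial share the feeder value was 1.001-fold in the low part and 0.671-fold and 0.747-fold in the others. Vehicle groups were too small to look for single libraries that stand apart.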

How the results depend on the processing

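The log2 ratio of Hbegf in feeder cells was 2.35 with TMM factors, 2.36 with DESeq2 size factors, 2.21 with all deposited barcodes, 2.27 with at least 3 marker UMIs per class, 2.28 as a mean over cells and 2.39 with cells thinned to 1000 UMIs, and 2.21 to 2.39 over all 11 alternatives. Leaving out either vehicle library gave 2.22 to 2.25. The difference in the share of feeder cells with an Hbegf UMI, 18.0 percentage points, was 29.4 at 2000 UMIs, 24.6 unthinned, 16.7 with all deposited barcodes and 19.2 with at least 3 marker UMIs, and 17.5 to 18.5 without either vehicle library.

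Of the 2 members higher in EV feeder cells, 1 remained (Hbegf) without doublet removal and with all deposited barcodes. Over all genes 327 of 13116 and 320 of 13258 were higher there, against 310 of 12875 as given. Without vehicle 1 and without vehicle 2, 1 and 2 members remained, where 272 of 11866 and 285 of 11702 genes were higher. Of the 2 members higher in EV germ cells, 1 (Nrg1) remained in germ cells without a UMI of the feeder markers. With cells thinned to 1000 UMIs 0 remained. Over all genes 1460 of 12663 and 1194 of 11267 were higher under these settings. Without vehicle 1 or without vehicle 2, 1 member remained. Fewer genes had 50 UMIs there, and 990 of 11899 and 884 of 11445 were higher. The count was 4 with a minimum of 20 UMIs, with no minimum and with a fold of 1.5. Over all genes 2682 of 15559, 9993 of 23327 and 3155 of 13366 were higher under these settings, against 1541 of 13366 as given. Members lower in EV germ cells were 1 (Areg) instead of 0 with at least 3 marker UMIs and without UMIs of the other class. Among all genes 1010 of 13071 and 963 of 12663 were lower there, against 918 of 13366 as given. Between the classes, 5 members instead of 6 were higher in feeder cells under 6 alternatives, each time without Egfr. Over all genes, those higher in feeder cells numbered 3216 with TMM factors against 1986. The other 17 member ratios were judged by the standard deviation of the log2 ratios of EV 1 to each vehicle library. Of their 187 values, 114 moved by less than that standard deviation and 73 by at least as much. The 3 past the 2-fold rule (Areg in feeder, Ereg and Nrg1 in germ cells) kept their sign. The log2 ratio crossed 0 for Areg (-1.78 to 0.30), Egfr (-0.19 to 0.84) and Erbb2 (-0.11 to 0.90) in germ cells and for Erbb2 (-0.27 to 0.07) and Erbb3 (-0.79 to 0.04) in feeder cells. The cause of these differences was not tested. No paired analysis was possible because counts of only 1 EV library were used. In germ cells, 5 of the 7 members past the minimum there had ratio intervals that include 1.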
